A study of Mus musculus with 6 samples.

Results

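The Notch pathway and double-negative stage genes described here are Notch1, Notch3, Hes1, Dtx1, Ptcra, Il2ra, Cd44, Ly6d, Erg and Myc, 10 of the 20289 genes named on the array. They were chosen by name, with earlier results of these data known. Every probe that the platform annotation gave to one of these symbols was used, 21 of 45281 probes. The samples were total RNA of CD4+CD8+ double-positive thymocytes, sorted by flow cytometry from thymuses of mice with a C57BL/6 background, with 1 Illumina bead array per sample. The 3 control arrays came from Flvcr+/+ mice and the 3 Flvcr-deleted arrays from Flvcr-/- mice. The labels give neither the age of the mice, nor how the deletion was made, nor whether each sample came from its own animal. The p-values therefore cover the spread between samples, which may be partly technical. Flvcr1 encodes a heme exporter, and the question is which transcripts of these cells change when it is deleted.

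Notch1 is the receptor that commits blood progenitors in the thymus to the T cell lineage. A ligand on thymic epithelium, mainly DLL4, leads to cleavage of the receptor by ADAM proteases and gamma-secretase, and the released intracellular part joins the DNA-binding protein RBPJ and a Mastermind coactivator to switch on targets such as Hes1, Dtx1, Ptcra, Il2ra and Myc. Early thymocytes without CD4 and CD8, called double-negative, are staged by CD44 and by CD25, the product of Il2ra. They depend on Notch until the pre-T cell receptor, whose alpha chain Ptcra encodes, has signalled, and Notch signalling is low once cells are double-positive.

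Promoter sequence was available for some of these genes. The RefSeq promoter table (build GRCm38.p6) held 9 windows of 300 bases for 7 of the genes, each from 250 bases before a start site to 50 after it. Windows were searched on both strands for TGGGAA, the core that RBPJ recognises, which reads TTCCCA on the other strand, and for CAGCTG, an E-box read by E proteins that is its own reverse complement. Matches to the 2 motifs can share the letters TG but did not overlap in these windows. TGGGAA occurred in 25.6% and CAGCTG in 16.3% of the 32851 windows in the table. A match is a run of letters, not evidence of a bound factor. The windows of Ptcra (chr17:46763663-46763962, minus strand) and Cd44 (chr2:102901616-102901915, minus strand) are shown. Ptcra was taken as the pre-T cell receptor gene. Cd44 was taken as the only gene among these windows whose groups did not overlap at its brightest probe. Both windows run 5′ to 3′ along the gene, with both motifs in capitals.
Ptcra: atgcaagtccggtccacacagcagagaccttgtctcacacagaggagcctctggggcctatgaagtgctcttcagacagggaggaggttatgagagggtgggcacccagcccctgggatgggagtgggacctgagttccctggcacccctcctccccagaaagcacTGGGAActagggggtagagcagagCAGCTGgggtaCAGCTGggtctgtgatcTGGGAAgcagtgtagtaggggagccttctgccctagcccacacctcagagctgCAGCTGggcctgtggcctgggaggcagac
Cd44: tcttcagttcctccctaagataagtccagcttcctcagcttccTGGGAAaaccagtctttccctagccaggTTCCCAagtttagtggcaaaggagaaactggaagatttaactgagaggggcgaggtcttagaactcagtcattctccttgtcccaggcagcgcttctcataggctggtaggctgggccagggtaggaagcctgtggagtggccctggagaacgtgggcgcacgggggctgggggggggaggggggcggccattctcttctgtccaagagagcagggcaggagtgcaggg
The Ptcra window held TGGGAA starting 84 and 32 bases before the start site, and CAGCTG starting 60 and 49 bases before it and at base 22 after it. In the Cd44 window TGGGAA started 207 bases and its reverse complement 179 bases before the start site, and there was no CAGCTG. At least 2 matches to TGGGAA were found in 3.8% of all windows. One of the 3 Erg windows held 1 match to TGGGAA. The windows of Notch1, Notch3, Dtx1 and Il2ra held neither run of letters.

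Arrays had 33.8% to 34.9% of probes detected, meaning a detection p under 0.05 against negative controls. The Flvcr1 probe, which checks the labels only as far as its unstated target position allows, was 1.88-fold lower on Flvcr-deleted arrays (limma adjusted p = 0.0317), with no overlap of the groups. Of 11 measured double-positive markers 0 passed, and their mean log2 value lay at 11.93 to 12.08 on control and 11.95 to 12.08 on Flvcr-deleted arrays, with log2 differences (Flvcr-deleted minus control) of -0.05 for Cd8b1, -0.13 for Cd3e and -0.13 for Rag1. The probes of the defining marker Cd8a were detected on 0 arrays. Xist, a transcript of female cells, was detected on control replicates 1 and 2 and Flvcr-deleted replicates 2 and 3 only, and the Y-linked Eif2s3y only on the remaining pair, so each group held 1 array of male pattern.

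Ly6d, at both of its probes, and Cd44, at its brightest probe only, read lower on every Flvcr-deleted array than on any control array. The other tested Cd44 probes and the other genes had overlapping groups. None of the 10 genes passed the test across all probes. Of the 21 probes, 11 were detected on at least 3 arrays and were tested, standing for 8 genes, and 8 probes were detected on no array. A gene with several tested probes is represented by the one with the highest mean. With limma, 0 of the 8 genes had an adjusted p under 0.05, where 0.148% of all 8808 genes tested did, and 2 of 8 had an unadjusted p under 0.05, against 4.63% of all genes. Groups did not overlap for 2 of 8, both lower, against 9.59% of all genes in either direction and 4.36% lower. Because the genes were chosen with earlier results known, these shares describe the set and do not test it. The median log2 fold change of the 8 was -0.05, against 0.01 over all genes, and the median size of the change was 0.23 against 0.12. Values below are log2 normalised intensities after background correction, and differences are Flvcr-deleted minus control. Different probes bind with different strength, so their levels are not set against each other.

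**Figure D1:**
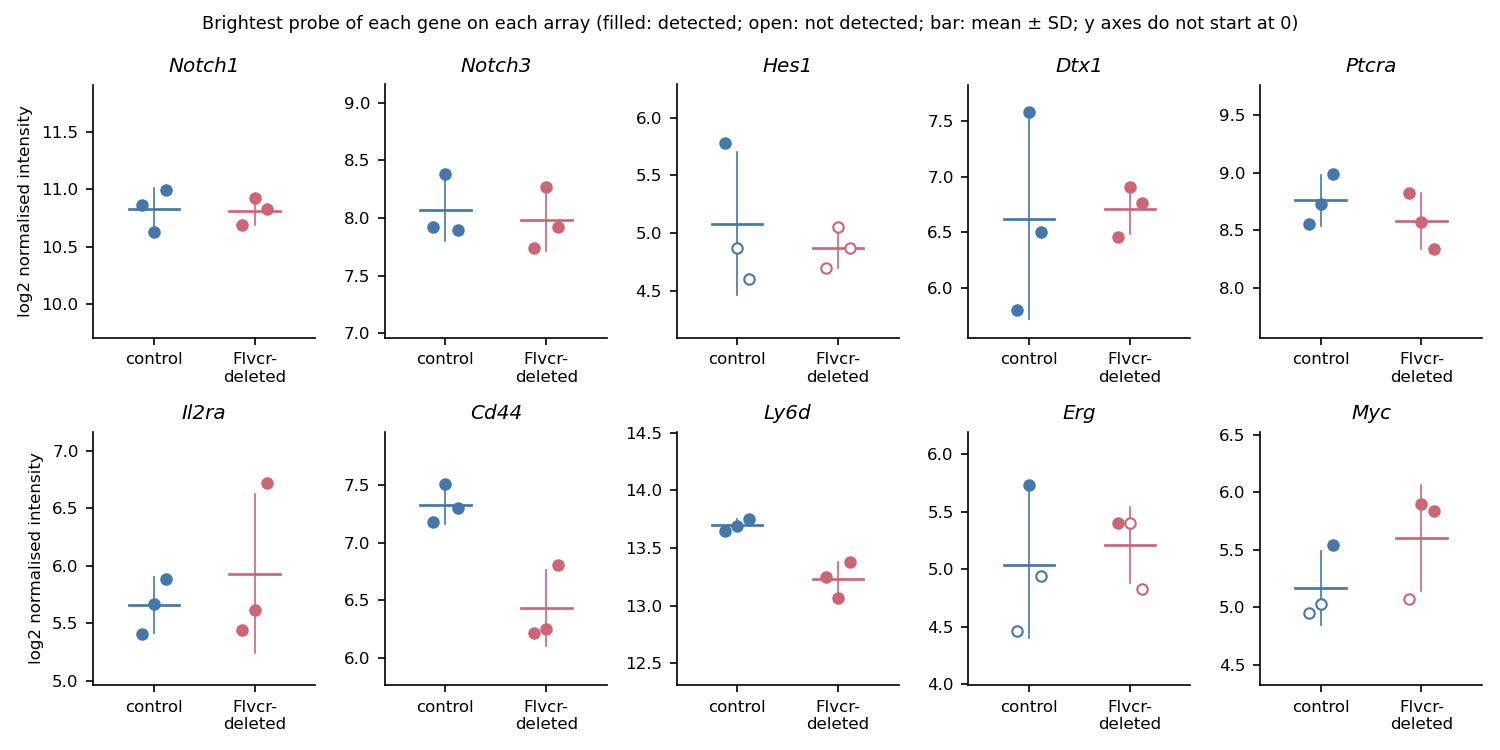
Log2 normalised intensity (y axis) of the brightest probe of each of the 10 genes in the 3 control (blue) and 3 Flvcr-deleted (red) arrays, with the mean and SD; open points were not detected on that array. Ly6d and Cd44 show separate groups, Hes1 and Erg are mostly undetected, and 1 array stands apart in Dtx1 (control replicate 2) and in Il2ra (Flvcr-deleted replicate 3).

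The receptors, first in the pathway, had nearly level means. The Notch1 probe read 10.86, 10.63 and 10.99 on control replicates 1 to 3, and 10.69, 10.92 and 10.83 on the Flvcr-deleted arrays in the same order, as in all values given by array. The groups overlapped fully, with the highest and the lowest value both on control arrays. The difference was -0.02 (SE 0.136, limma adjusted p = 1), with a 95% interval of -0.31 to 0.27. Notch3, a second receptor that is itself induced by Notch signalling in immature thymocytes, read 7.92, 8.38 and 7.90 in control against 7.74, 8.27 and 7.92 in Flvcr-deleted cells. Its highest value was on replicate 2 of either group and the groups overlapped. Its difference was -0.09 (SE 0.208), with an interval of -0.53 to 0.36.

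Among the targets that report Notch activity, Hes1 was at background. This gene of a bHLH repressor, the best known direct Notch target, had 1 probe, detected on control replicate 1 alone. The probe read 5.78 there, 4.87 and 4.60 on the other control arrays and 4.70, 5.05 and 4.87 on the Flvcr-deleted arrays. It was therefore not tested, and no level can be given beyond not detected on 5 of 6 arrays. A probe can miss a transcript that is present: those of Cd8a were at background in these CD8+ cells.

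Dtx1, which encodes the ubiquitin ligase Deltex1 and is induced by Notch in thymocytes, was detected on all 6 arrays. It read 5.80, 7.58 and 6.50 in control against 6.46, 6.91 and 6.76 in Flvcr-deleted cells. The 3 control arrays spanned the whole range and enclosed every Flvcr-deleted value. The means were 6.62 ± 0.90 and 6.71 ± 0.23 (SD, n = 3 each), a difference of 0.09 (SE 0.351, adjusted p = 1). The interval ran from -0.66 to 0.84. Without control replicate 1 the difference was -0.33 and without control replicate 2 it was 0.56, so its sign and size turned on single control arrays. Across the 6 arrays Dtx1 varied with Notch3 (Pearson r = 0.76), a description over 6 points that share array and labelling, with control replicate 2 highest for both genes.

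Ptcra, the invariant alpha chain of the pre-T cell receptor, whose promoter letters are given above, read 8.55, 8.73 and 8.99 in control against 8.82, 8.57 and 8.34 in Flvcr-deleted cells. The lowest value was on a Flvcr-deleted and the highest on a control array, with overlap between them. The difference was -0.18 (SE 0.186, adjusted p = 1, interval -0.58 to 0.22). In the list of pre-T cell receptor and beta-selection genes, 19 of 24 were measured, 3 of them among the 10 genes, and 0 passed in either direction. Of these 19, 6 read higher and 13 lower, with a median of -0.07 and a range of -0.20 to 0.26, where the median SE of a difference over all genes was 0.19. The CD3 chain genes Cd3d (-0.11), Cd3g (-0.06) and Cd3e (-0.13), which carry the signal of both receptor forms, Rag1 (-0.13), the recombinase, and the adaptor gene Lcp2 (0.26) did not pass, and no gene of the list had separate groups.

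Myc, a growth regulator that Notch induces at beta-selection, was near background. Of its 2 probes, 1 was detected on no array. The other read 4.95, 5.03 and 5.54 in control against 5.07, 5.90 and 5.84 in Flvcr-deleted cells. It was detected on control replicate 3 and on Flvcr-deleted replicates 2 and 3, so it left the test when any of these was left out. The groups overlapped, and the difference was 0.43 (SE 0.316, adjusted p = 1, interval -0.24 to 1.11). Without background correction it was 0.14. In the 4 arrays with Xist detected the difference was 0.88, and in the pair without it, 1 array per group, it was -0.47. Myc is also an immediate early gene of cell handling, and 8 of 9 immediate early genes detected in both groups read lower, with overlapping array means of 9.46 to 10.54 in control and 9.34 to 9.87 in Flvcr-deleted cells. Among them Fos stood at -1.12, Jun at -0.81 and the abundant Nfkbia and Egr1 at -0.07 and 0.01, none past the test.

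Myc target genes also had 0 of 20 measured members past the test in either direction. Of them 14 read higher and 6 lower, with a median of 0.11, against 0.01 over all genes. Polr1b, a subunit of RNA polymerase I, stood at 0.52 (SE 0.241), Gnl3, a nucleolar GTPase, at 0.32, Cad, of pyrimidine synthesis, at 0.45, Nme1, a nucleotide kinase, at 0.15, and the abundant Npm1 and Ldha at 0.15 and 0.12. Proliferation genes had 15 of 17 members higher with a median of 0.12 and 0 past the test, with Mki67 at 0.48, Tk1 at 0.45 and the abundant Mcm5 and Cenpa at 0.20 and 0.14. Their array means spanned 10.25 to 11.25 in control and 10.48 to 11.20 in Flvcr-deleted cells. Control replicate 2 held the lowest mean of both the proliferation and, with Flvcr-deleted replicate 1, the Myc target lists (9.48 each). Whether proliferation has a part in the Myc target values was not tested.

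Of the double-negative stage genes, Il2ra and Erg did not separate the groups. Il2ra encodes CD25, the receptor chain that marks double-negative cells around commitment. Its probe read 5.41, 5.67 and 5.89 in control against 5.44, 5.62 and 6.72 in Flvcr-deleted cells. Flvcr-deleted replicate 3 stood apart, and the remaining values interleaved close to the lowest detected signal of an array, 5.37 to 5.44. The difference was 0.27 (SE 0.332, adjusted p = 1, interval -0.44 to 0.98), and -0.12 without Flvcr-deleted replicate 3. Leaving out Flvcr-deleted replicate 1 or 2 instead gave 0.52 or 0.42. Erg, an ETS factor of progenitors that is switched off at commitment, had 2 probes. The first was detected on control replicate 2 and Flvcr-deleted replicate 1 and the second on no array, so Erg was not tested. The first read 4.46, 5.73 and 4.94 in control against 5.40, 5.40 and 4.83 in Flvcr-deleted cells, with overlapping groups.

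Ly6d encodes a small surface protein of the Ly6 family, anchored to the membrane by a lipid, that is carried by many cortical thymocytes and by B-lineage progenitors and B cells. Both of its probes were bright and detected on all arrays. The first read 13.65, 13.69 and 13.75 in control against 13.25, 13.07 and 13.38 in Flvcr-deleted cells. Every Flvcr-deleted value lay below every control value, with a gap of more than the spread within the control arrays. The means were 13.70 ± 0.05 and 13.23 ± 0.15 (SD, n = 3 each), 1.38-fold lower, a difference of -0.46 (SE 0.0996, interval -0.68 to -0.25). The unadjusted p was 0.000335, which placed the probe 37th of 15448, and the adjusted p of limma was 0.137.

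The second Ly6d probe read 13.25, 13.41 and 13.08 in control against 12.65, 12.39 and 12.97 in Flvcr-deleted cells. Its groups did not overlap either, and on both probes Flvcr-deleted replicate 2 was lowest and Flvcr-deleted replicate 3 nearest to control. It was 1.5-fold lower, a difference of -0.58 (SE 0.137, interval -0.88 to -0.29, adjusted p = 0.23). The probes measure the same samples and are not replicates of each other. In the arrays with Xist detected the first probe's difference was -0.44, and in the pair without it was -0.50. Over all alternatives the difference of Ly6d stayed between -0.54 and -0.38, with an adjusted p of limma of 0.0801 to 0.798. In 1 of them, the mean of the gene's probes, it drew on both probes and was -0.52.

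B cell markers are given beside Ly6d, which is also a gene of that lineage. Of 12 listed markers 4 were measured, with array means of 10.47 to 10.84 in control and 9.88 to 9.93 in Flvcr-deleted cells. Igkc, the kappa light chain constant region, fell by 3.36 on the log2 scale (limma adjusted p = 5.09e-07). The gap between these array means rests on this gene. The B cell receptor signalling chain Cd79b stood at 0.26, the mu heavy chain Ighm at -0.05 and the surrogate light chain Vpreb1 at -0.06, all with overlapping groups. The defining B cell genes Ms4a1 and Pax5, and the surrogate light chain Igll1, were detected on 0 arrays. The part of B cells in the Ly6d values was not tested. In bulk RNA fewer cells of a type and less RNA per cell cannot be told apart.

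Cd44 encodes the hyaluronan receptor that is high on the earliest thymocytes, falls before beta-selection and returns on activated and memory T cells. Its brightest probe read 7.18, 7.51 and 7.30 in control against 6.22, 6.25 and 6.81 in Flvcr-deleted cells. The groups were separate, with Flvcr-deleted replicate 3 again nearest to control. The means were 7.33 ± 0.17 and 6.43 ± 0.33 (SD, n = 3 each), 1.87-fold lower, a difference of -0.90 (SE 0.235, interval -1.40 to -0.40). The unadjusted p was 0.00167 and the adjusted p of limma 0.388. The difference was -0.45 without background correction, which moves dim probes most, and -0.50 for the mean of the gene's tested probes.

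Only 3 of the 9 Cd44 probes could be tested, and all 3 had means below control, with overlapping intervals. The second read 6.31, 6.42 and 5.54 in control against 5.55, 5.98 and 5.74 in Flvcr-deleted cells, a difference of -0.34 (SE 0.290, adjusted p = 1, interval -0.96 to 0.28), with control replicate 3 below all Flvcr-deleted values. The third was detected on 2 control arrays and 1 Flvcr-deleted array and stood at -0.25 (SE 0.319, interval -0.93 to 0.43), with overlapping groups. The remaining 6 were detected on no array, at means of 4.58 to 4.90. Positions of the probes on the transcript were not used here, and whether they read different Cd44 isoforms was not tested. With Xist detected the differences at the brightest probe and the others tested were -0.81, -0.51 and -0.33. In the pair without it, 1 array per group, they were -1.08, 0.01 and -0.09.

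**Figure D2:**
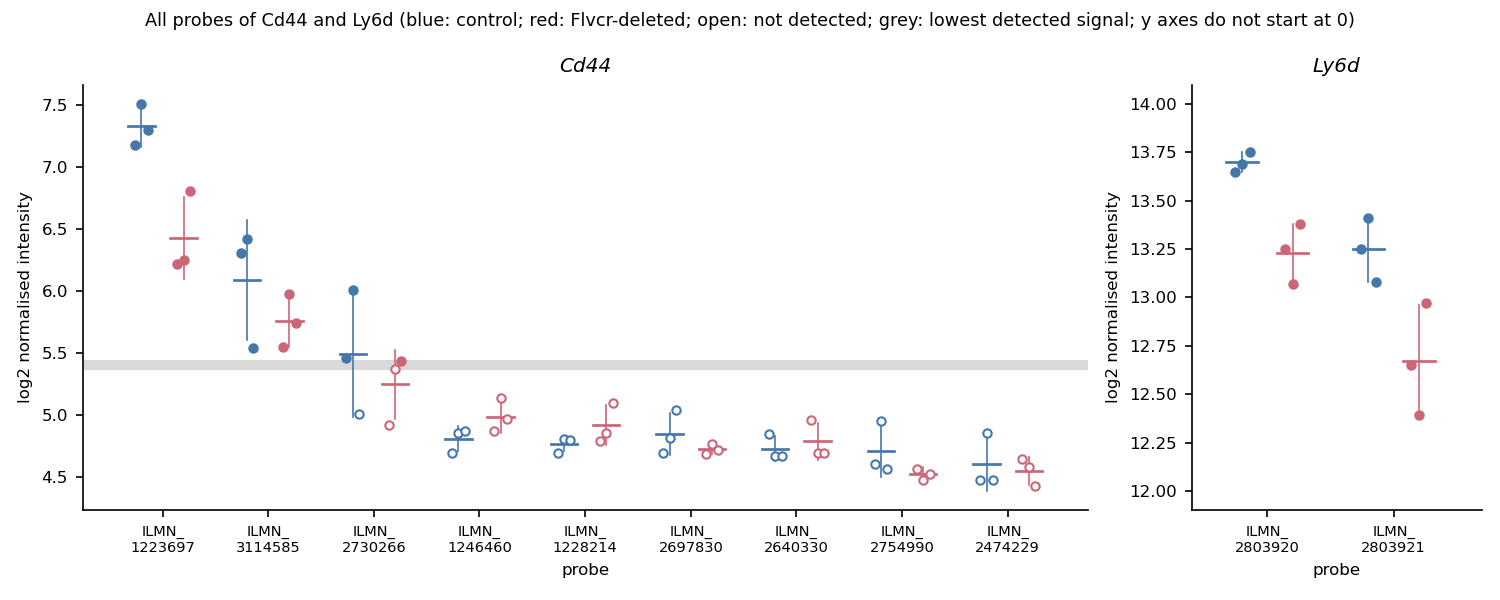
Log2 normalised intensity (y axis) at all 9 probes of Cd44 and both probes of Ly6d (x axis) on each array, with mean and SD, control in blue and Flvcr-deleted in red. The brightest Cd44 probe and both Ly6d probes have separate groups, and 6 Cd44 probes are undetected (open points) below the grey band of 5.37 to 5.44 that marks the lowest detected signal of the arrays.

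Markers of other cells that carry Cd44 are given beside it, and none of the mature single-positive, NK and gamma-delta, dendritic and macrophage or stromal markers passed. Of 12 mature single-positive markers, 4 were tested and detected on arrays of both groups, 3 lower and 1 higher, at a median of -0.56. The 3 lower genes had an unadjusted limma p under 0.05, beside 4.63% of all genes. This list too was chosen with earlier results of these data known. Array means were separate by a narrow gap, at 7.85 to 8.25 in control and 7.42 to 7.82 in Flvcr-deleted cells. Itgb7, an integrin chain, stood at -0.44 with separate groups. The egress regulator Klf2 stood at -0.67, the chemokine receptor gene Ccr7 at -0.76, and the abundant Foxp3 probe at 0.11, all with overlapping groups. Ccr7 was detected on 3 control arrays and 1 Flvcr-deleted array, so control alone met its detection filter. It read 5.17 and 5.32 on Flvcr-deleted replicates 2 and 3, below the lowest detected signal of those arrays, and its difference rests partly on such values. Il7r and Nkg7 were detected on 3 control and 0 Flvcr-deleted arrays, so they entered the test only through control and are left out of these means. They lay lower by at least 1.16-fold and 1.49-fold. The defining markers S1pr1, Cd40lg, Runx3 and Ms4a4b were detected on 0 arrays. Of the NK and gamma-delta markers, Prf1, a cytotoxic granule gene, was the only one besides Nkg7 to be tested, and stood at -0.08 with overlapping groups. Array means of the 6 measured dendritic and macrophage markers overlapped, at 7.44 to 7.66 in control and 6.91 to 7.50 in Flvcr-deleted cells. Cd74 stood at -1.13 with separate groups, H2-Eb1 at -0.66 and the abundant Cst3 and H2-Ab1 at -0.07 and -0.10. Of the 6, 2 had an unadjusted limma p under 0.05, both lower. The defining genes Ncr1, Klrb1c, Itgax and Adgre1 were detected on 0 arrays. The 2 measured stromal markers had means of 7.78 to 8.08 in control and 7.98 to 8.20 in Flvcr-deleted cells, with Ccl25 at 0.52 and Pecam1 at -0.05. The part of such cells in the Cd44 values was not tested.

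**Figure D3:**
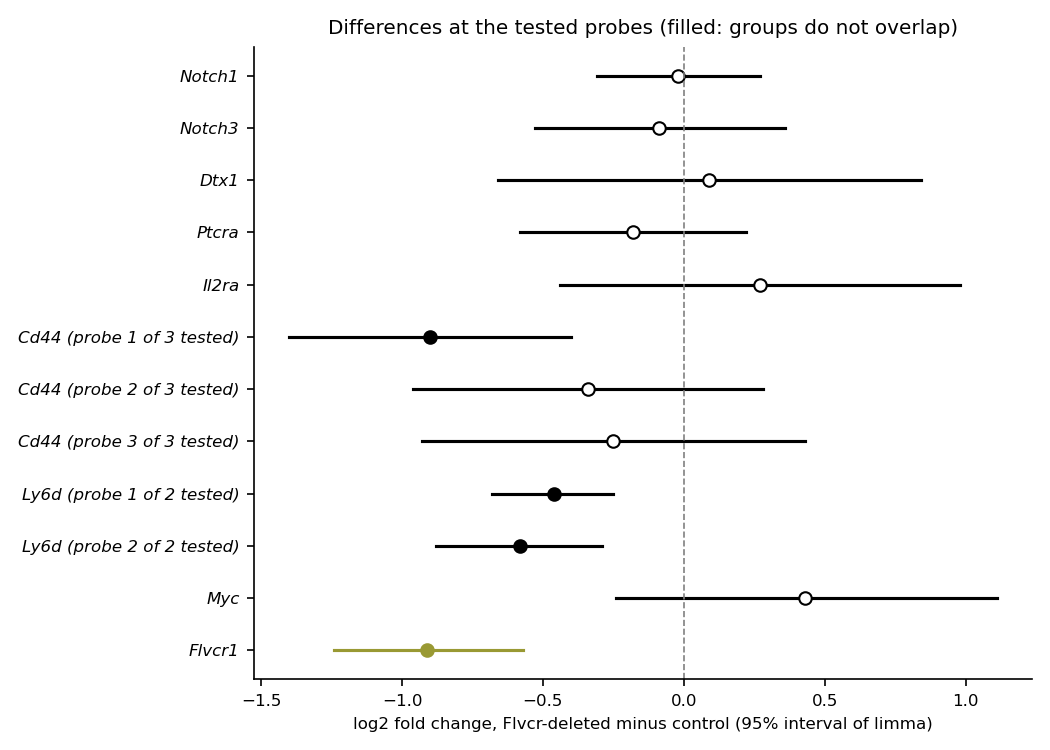
Log2 fold change with its 95% interval (x axis) at the 11 tested probes of the 8 genes and at Flvcr1 (y axis), filled where the groups do not overlap. The intervals at both Ly6d probes and at the brightest Cd44 probe lie below 0, before adjustment for the number of probes, as does that at Flvcr1, while those of the other genes and the other Cd44 probes span 0.

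Ly6d and Cd44 varied together (Pearson r = 0.95 over 6 arrays), with both lower in the same group. By the same measure the genes most like Ly6d were Gm15429 (r = 0.996), Senp6 (0.993), a SUMO protease, and Tmem35a (0.980). Tmem35a, a membrane protein gene, differed most of these, at -1.21 (limma adjusted p = 0.0994). Most like Cd44 were C9 (r = 0.990), a complement component, Gm1673 (0.978) and Itpka (0.967), an inositol trisphosphate kinase. Gm1673 and Itpka differed by -0.60 and -0.52 and did not pass. Senp6 and C9 were detected on 3 control and 0 Flvcr-deleted arrays, so they entered the test only through control, and their r rests partly on values below the lowest detected signal. Such likeness was sought among 8808 genes over 6 arrays and is a description only.

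The wider double-negative and progenitor list gave no gene past the test. Of 27 genes 8 were measured, 3 of them among the 10 genes, and 12 were detected on no array, among them the progenitor regulators Spi1, Lyl1, Lmo2, Tal1 and Bcl11a. The measured genes split into 5 higher and 3 lower, at a median of 0.04. Besides Ly6d and Cd44, groups were separate for Fli1, which was higher, and for Il7r, which was tested only through control arrays and is known by the bound above. Over all genes 9.59% had separate groups. Fli1, an ETS factor, read 8.0, 8.73 and 8.55 in control against 8.74, 8.93 and 8.87 in Flvcr-deleted cells, a difference of 0.42 (SE 0.198, adjusted p = 1). Its highest control and lowest Flvcr-deleted values nearly touched. Dntt, the terminal transferase of antigen receptor joining, stood at 0.05.

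Other genes of the Notch pathway showed no shared direction. Beyond the 10 genes, 64 were listed over ligands and receptors, processing, nuclear complex, trafficking and targets, of which 36 were measured. None passed the test, 2 had an unadjusted p under 0.05 (4.63% of all genes did), 20 read higher and 16 lower, and the median was 0.02. Groups did not overlap for 5 of the 36, beside 9.59% of all genes, and 1 of the 5, Il7r, was tested only through control arrays.

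Of the ligands and receptors only Notch1, Notch3 and Notch4 (-0.21) were measured, and the ligand genes Dll1, Dll4 and Jag1 were detected on no array of these sorted thymocytes. Notch4 was detected on 2 control arrays and 1 Flvcr-deleted array, at a mean of 5.42, near the lowest detected signal. Among 10 measured processing and glycosylation genes, 4 lay above and 6 below 0, at a median of -0.04. Pofut1, which adds the O-fucose that ligand binding needs, read 7.91, 7.84 and 8.0 in control against 8.18, 8.36 and 8.41 in Flvcr-deleted cells. All Flvcr-deleted values lay above control, and the difference of 0.40 did not pass (SE 0.176, unadjusted p = 0.0373, adjusted p = 1). Mfng, a Fringe glycosyltransferase that extends this fucose, stood at 0.22 with separate groups. The presenilin gene Psen2 stood at -0.33, the protease gene Adam17 at -0.18 and the gamma-secretase subunit genes Psenen and Ncstn at -0.10 and 0.07.

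In the nuclear complex 9 of 15 genes were measured, 6 higher and 3 lower, with a median of 0.06, and the Rbpj probes were detected on no array. Maml2, a Mastermind coactivator, stood at 0.33 with separate groups (8.14 to 8.45 in control and 8.56 to 8.65 in Flvcr-deleted cells, adjusted p = 1). Maml3 stood at 0.38, the acetyltransferase genes Kat2b and Ep300 at 0.36 and 0.00, and the corepressor gene Spen at -0.27. Of 8 measured trafficking and degradation genes, 6 lay above and 2 below 0, at a median of 0.05. The ubiquitin ligase gene Cbl stood at -0.47 with separate groups (SE 0.231, adjusted p = 1). Numb, an inhibitor of Notch, stood at 0.17, and Nedd4, Fbxw7 and Dtx2, which encode ubiquitin ligases, at -0.16, 0.09 and 0.07.

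The Notch target list had 15 of 22 genes measured, 6 of them among the 10 genes, and 8 read higher and 7 lower with a median of 0.02. Il7r, 1 of the 7, was tested only through control arrays. Of the 14 genes detected in both groups, 8 read higher and 6 lower. Igf1r, the insulin-like growth factor receptor gene, had the smallest unadjusted p (0.0107). It read 8.17, 8.34 and 7.50 in control against 7.86, 6.92 and 6.46 in Flvcr-deleted cells, a difference of -0.92 (SE 0.314, adjusted p = 0.965), and Flvcr-deleted replicate 1 overlapped control. Nrarp, a feedback inhibitor that Notch induces directly, read 7.30, 6.74 and 7.77 in control against 7.62, 7.81 and 7.85 in Flvcr-deleted cells. Its difference was 0.49 (SE 0.246, adjusted p = 1), with control replicate 3 inside the Flvcr-deleted range. The abundant targets Ccnd3, a D-type cyclin of beta-selection, and Bcl11b, a commitment factor, stood at -0.11 and 0.02. The bHLH targets Hes5, Hey2 and Heyl were detected on no array.

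**Figure D4:**
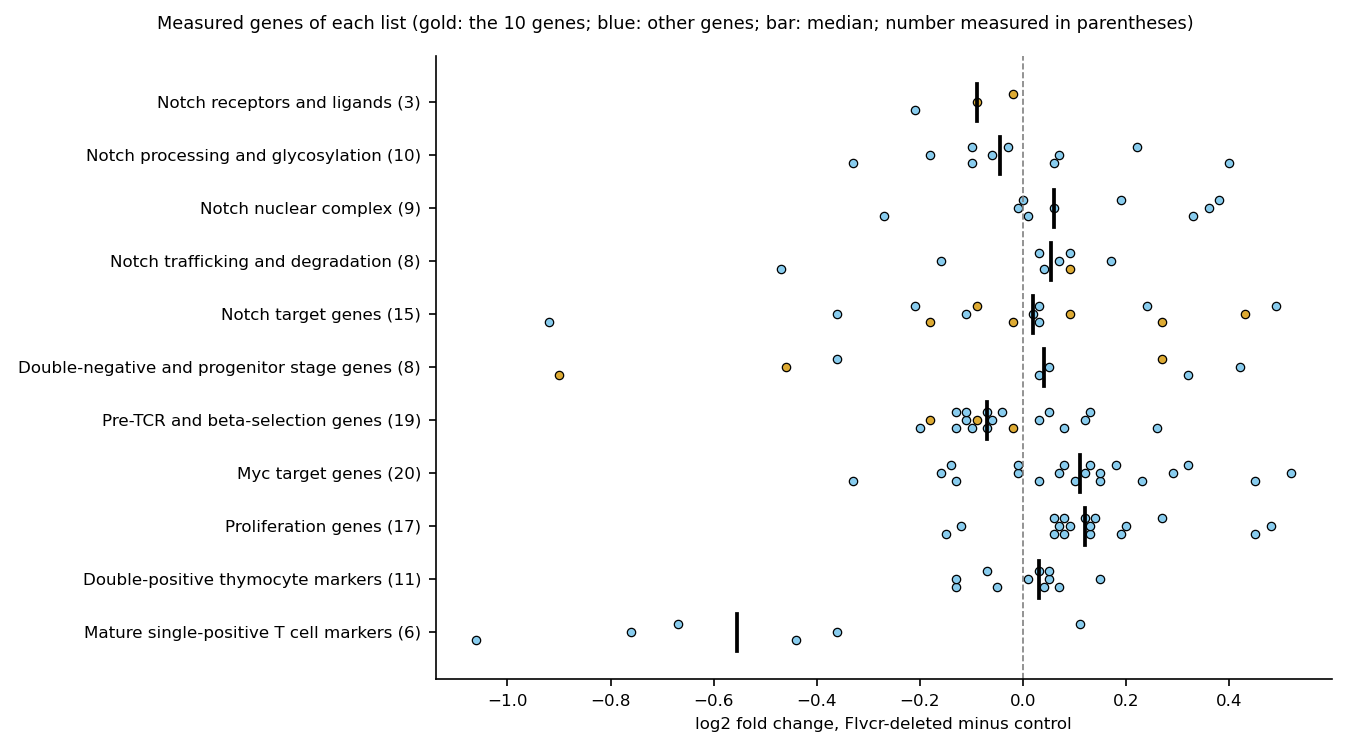
Log2 fold change (x axis) of each measured gene in 11 lists (y axis), with the 10 genes in gold, other genes in blue and the median as a bar. The Notch lists centre near 0 (medians of -0.09 to 0.06), Cd44 and Ly6d are the low gold points of the double-negative list. The row of mature single-positive markers includes Il7r and Nkg7, which were detected on control arrays only. Il7r also stands in the rows of Notch targets and double-negative genes.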

How the data were processed

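Titles of the samples gave groups and replicate numbers. Per the file headers, the authors deposited each probe's intensity, linear and unscaled between arrays, with its detection p-value. Their other table, deposited as log2 values, matched the log2 of quantile-normalized intensities to within 5e-09; lumi is named in the submitters' processing notes, with no version. Array medians of intensity were 126.1 to 149.1, and the number of arrays limits the precision.

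The intensities were processed with neqc of limma 3.58.1 (R 4.3.3, offset 16, negative controls inferred from detection p). Probes detected at p under 0.05 on at least 3 arrays, 15448 in all, were tested with lmFit and eBayes (variance trend, 2-sided) and Benjamini-Hochberg adjustment over them, at a threshold of 0.05. Where a group had no detected array, a bound on the fold uses the larger of each array's lowest detected signal and the probe's value, and holds on the background-corrected scale. Symbols follow RefSeq names of assembly GRCm38.p6, and 9497 of 45281 probes had none. The test was tried on simulated arrays, with changes put into brighter probes only. It called 14.9% of 1.5-fold, 62.7% of 2-fold and 95.5% of 4-fold changes. A gene that did not pass can therefore still differ, above all at the smaller folds. Alternatives are named in the closing section. Figures used matplotlib 3.10.9.

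The genes and lists were chosen with earlier results of these data known. Named were the 10 genes, Flvcr1, from each pathway list up to 4 genes with the smallest p and the 2 with the highest mean, from each other list 2 of each kind, and the 3 genes most like each of the 2 with the smallest p. List means without genes detected in 1 group only were added after the data were seen. Undetected genes, Eif2s3y, Xist, Klf2, and Vpreb1 were named after their values were seen.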

Additional observations from a re-analysis of the deposited data

How the results depend on the processing

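None of the 10 genes passed in the main test or in 16 alternatives, wherever a gene could be tested. Alternatives were no background correction, median scaling, the deposited log2 values, no or a strict detection filter (p under 0.01), no variance trend, array weights, a replicate block, Xist as a covariate, the mean of a gene's probes and each array left out. Of 123 values of single genes, 113 kept their direction and their side of the threshold and 10 changed sign without being called. The deposited log2 values repeat the setting without background correction, so these counts hold the same results under 2 names. Leaving out 1 array at a time gave -0.11 to 0.06 for Notch1, -0.24 to 0.07 for Notch3, -0.33 to 0.56 for Dtx1 and -0.12 to 0.52 for Il2ra. For Dtx1 the log2 fold change was 0.00 without background correction and with the deposited log2 values, which lack that correction. Over all genes, 13 passed (2 higher and 11 lower). That count was 15 (4 higher and 11 lower) with median scaling, 1 without the variance trend, 30 with array weights and 2 to 12 with 1 array left out. It was 4 and 2 without control replicate 1 or 2, and 2 and 3 without Flvcr-deleted replicate 2 or 3. The cause was not tested. The arrays share only replicate numbers: deviations of same-numbered arrays correlated at -0.148, 0.093 and 0.109. With the replicate block 12 genes passed and Ly6d stood at -0.46 (limma adjusted p = 0.152). Hes1 and Erg, tested only without the detection filter, stood at -0.21 and 0.17 (adjusted p = 0.99 and 0.993). Signal near background limits what Hes1, Erg, Il2ra, Myc and most Cd44 probes can show, as it does for Notch4 and Maml3 of the wider lists.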
